A study of Mus musculus with 6 samples.

Results

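The clustered protocadherins are cell-surface proteins of the cadherin superfamily whose genes lie side by side in 3 clusters, called alpha, beta and gamma. Members were taken by name, as every protein-coding gene whose symbol starts with Pcdha, Pcdhb or Pcdhg, which gave 57 of the 57180 gene identifiers in the data. Of these, 14 belong to the alpha cluster, 22 to the beta cluster and 21 to the gamma cluster. Within alpha and gamma, 5 are C-type members, Pcdhac1, Pcdhac2, Pcdhgc3, Pcdhgc4 and Pcdhgc5.

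In the alpha and gamma clusters each member has its own promoter and its own large variable exon, which encodes the extracellular, transmembrane and first intracellular parts of the protein and is spliced to constant exons that all members of the cluster share. Beta members have no constant exons and are encoded by a single exon. In neurons, CTCF and cohesin bring a distant enhancer to a few promoters, so that each cell uses its own random choice of ordinary members, while C-type members are switched on more regularly. Proteins of the family bind the same kind of protein on a neighbouring cell, and in neurons they let a cell tell its own branches from those of other cells. The family is best known from neurons, and these data describe it in the cornea.

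RNA-seq was performed on corneal endothelial cells, the single cell layer on the inner face of the cornea that pumps fluid out of it. The first group, labelled Tcf4+/-, had the genotype Col8a2Q455K/Q455K/Tcf4+/-, and the second, called Col8a2, had the genotype Col8a2Q455K/Q455K, with 3 libraries each and no treatment in either. Both groups thus carry the Q455K allele of Col8a2 on both chromosomes. Col8a2 makes a chain of type VIII collagen in the membrane beneath these cells, and the mutant mouse serves as a model of Fuchs endothelial corneal dystrophy, so no library here comes from a mouse with intact Col8a2. The labels give no age, and do not say whether a library came from 1 animal or from pooled corneas or what drives the loss of Tcf4, and a p-value here therefore reflects differences among these 6 samples that may in part be technical.

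Total estimated counts were 30344161 to 54265479 in the Tcf4+/- libraries and 46644739 to 51302379 in the Col8a2 libraries. Tcf4, the E protein transcription factor named in the label, had no lower level under the Tcf4+/- label, at 471 ± 116 CPM (counts relative to library size, scaled by TMM) against 404 ± 81.7 CPM in the Col8a2 libraries (SD, n = 3 each), and the groups are therefore named by their labels only. All 12 marker genes of corneal endothelium were detected in every library, with summed levels of 11000 to 21100 CPM in the Tcf4+/- libraries and 12200 to 22600 CPM in the Col8a2 libraries. Tcf4+/- replicate 3 was the shallowest library and had the lowest endothelial sum, and it had the highest sums of 12 lens, 10 photoreceptor and 12 neuron markers, at 11200, 10500 and 822 CPM. The other Tcf4+/- libraries had 91.2 and 4200 CPM of lens, 2450 and 5050 CPM of photoreceptor and 252 and 582 CPM of neuron markers, and the Col8a2 libraries had 33.9 to 628, 2480 to 3500 and 382 to 442 CPM. The sum of 10 keratocyte markers, genes of the stromal cells, was below the endothelial one in every library and near it in some. It was 8550, 17800 and 10300 CPM in the Tcf4+/- libraries and 11300, 9060 and 5600 CPM in the Col8a2 libraries. All 10 keratocyte markers were fitted higher in Tcf4+/-, as were all 11 lens markers tested and all 10 photoreceptor markers, with 0 called. Their median log2 fold changes were 0.38, 4.15 and 0.98. Of 12 neuron markers 10 were fitted higher and 2 lower, and of 9 Schwann cell markers tested 7 higher and 2 lower. Of 12 endothelial markers 4 were fitted higher and 8 lower, and 49.9% of all genes tested were fitted lower. Sums of 10 corneal epithelium markers were 2390 to 7310 CPM and 3210 to 7040 CPM in the Tcf4+/- and Col8a2 libraries, those of 8 pigment cell markers 601 to 1550 CPM and 360 to 1190 CPM, and those of 10 Schwann cell markers 134 to 237 CPM and 115 to 164 CPM. The keratocyte and pigment sums were highest in Tcf4+/- replicate 2. The part of these other cell types in the protocadherin values was not tested, and in RNA pooled over many cells fewer cells of a type and less RNA per cell cannot be told apart.

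The clustered protocadherins were a small part of the RNA, and most of their counts fell to the gamma cluster. The 57 members together took 0.0406%, 0.0639% and 0.0221% of all estimated counts in the Tcf4+/- libraries, against 0.0418%, 0.0547% and 0.0486% in the Col8a2 libraries. Tcf4+/- replicate 3 had the lowest share, with the lowest endothelial sum and the highest lens, photoreceptor and neuron sums. Tcf4+/- replicate 2 had the highest share, with the highest keratocyte and pigment sums. It also had the lowest neuron, photoreceptor and epithelium sums and an endothelial sum of 21100 CPM. Which of these bears on the share was not tested. Of the members' counts, gamma took between 70.7% and 82.1%, beta between 15.7% and 24.9% and alpha between 2.18% and 8.01% across the 6 libraries. The order gamma, beta, alpha was the same in every library.

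No cluster total separated the groups. The summed gamma level was 338, 488 and 160 CPM in the Tcf4+/- libraries, against 313, 387 and 390 CPM in the Col8a2 libraries, with means of 329 ± 164 and 363 ± 43.8 CPM (SD, n = 3 each). The beta sum was 64.6, 128 and 48.1 CPM in the Tcf4+/- libraries, against 107, 111 and 88.9 CPM in the Col8a2 libraries, with means of 80.2 ± 42.1 and 102 ± 11.9 CPM. In both clusters the highest and the lowest library were Tcf4+/- libraries, replicates 2 and 3, and the Col8a2 libraries lay between them. The alpha sum was 8.98, 14.7 and 18.1 CPM in the Tcf4+/- libraries, against 10.2, 16.9 and 13.7 CPM in the Col8a2 libraries, with means of 13.9 ± 4.61 and 13.6 ± 3.35 CPM. The log2 ratios of the group means were -0.14 for gamma, -0.35 for beta and 0.03 for alpha, and the differences were smaller than the larger SD in each case. The alpha value was -0.44 on summed TPM, a level per length. The gamma ratio was 0.19 without Tcf4+/- replicate 3.

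**Figure D1:**
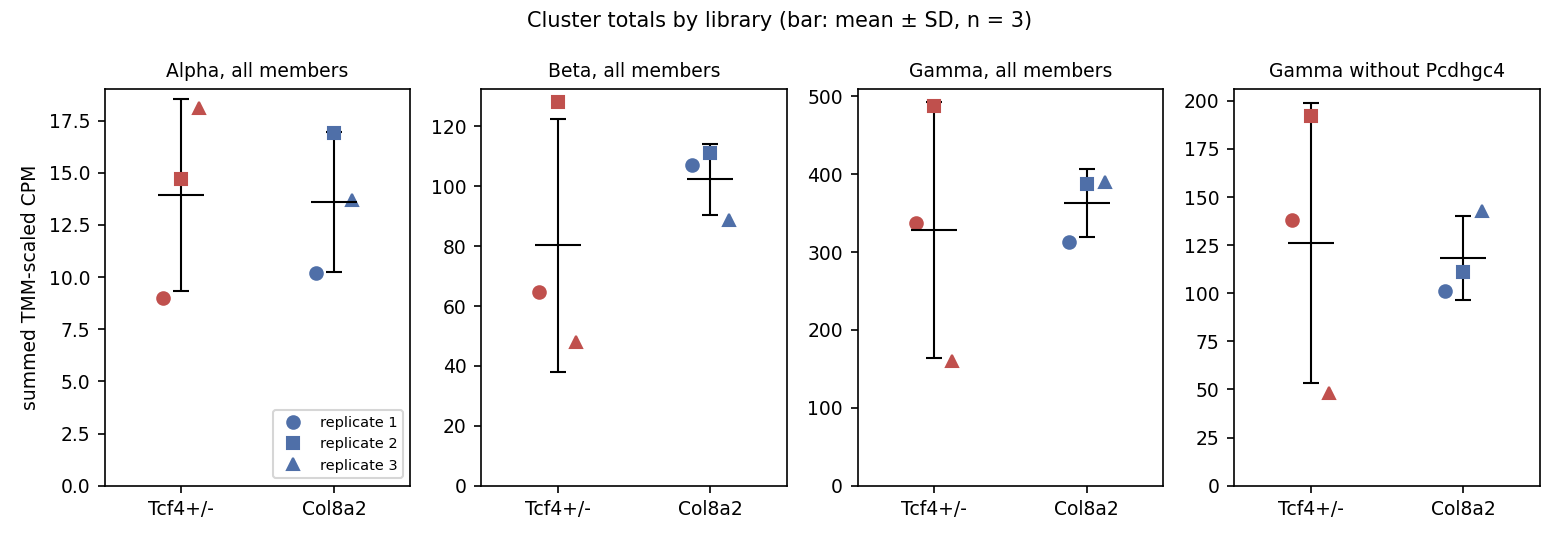
Summed TMM-scaled CPM of the alpha, beta and gamma members and of gamma without Pcdhgc4, 1 point per library with the mean ± SD (n = 3 each), Tcf4+/- left of Col8a2 in each panel. The Tcf4+/- libraries spread wider than the Col8a2 libraries in beta and gamma, from 48.1 to 128 CPM and from 160 to 488 CPM, and the groups overlap in every panel.

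How exactly a count can be given to 1 member differs between the clusters. In the annotation used, the constant exons come to 2860 bases in alpha and 2119 bases in gamma, and they make up a median of 53.46% and 44.96% of the longest coding transcript of a member. All 22 beta members have a single-exon coding transcript, and 20 of them share no base with another member. Pcdhb21 and Pcdhb22 overlap at one end, where a stretch of bases is common to both. Estimated counts above 0 were not whole numbers in 100% of alpha values, 93.5% of gamma values and 37.5% of beta values, as RSEM divides reads that fit several transcripts. Values of single alpha and gamma members are therefore estimates of a division, and cluster totals depend on it less. Beta values that were not whole are estimates of a division too, though most beta members share no annotated base.

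In the gamma cluster, Pcdhgc4 had the highest level per length in every library. Pcdhgc4 (ENSMUSG00000023036) is a C-type member that, in mice, is needed for the survival of many neurons. It stood at 201, 296 and 111 CPM in the Tcf4+/- libraries, against 211, 276 and 246 CPM in the Col8a2 libraries. The ranges overlapped, with means of 203 ± 92.2 and 245 ± 32.5 CPM (SD, n = 3 each). On the TPM scale Pcdhgc4 made up 75.6%, 75.2% and 81.4% of the gamma cluster in the Tcf4+/- libraries, against 81.2%, 84.0% and 78.1% in the Col8a2 libraries. It held between 46.9% and 53.6% of the counts of all 57 members. The fitted log2 fold change was -0.27 (standard error 0.37) with a 95% interval of -1.11 to 0.56. It was 0.01 without Tcf4+/- replicate 3, the library with the lowest value.

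Nearly all of the Pcdhgc4 level was given to 1 short transcript. The annotation gives the gene 3 transcripts, a full-length one of 5024 bases, a transcript of 3100 bases with a retained intron and no constant exon, and a short coding one of 2272 bases. The short one joins 153 bases of the variable exon to the complete constant exons, which are 93.3% of its length. The deposited mean length of the gene, weighted by the level of its transcripts, was 2317.6, 2296.1 and 2403.2 bases in the Tcf4+/- libraries, against 2327, 2309.4 and 2332.1 bases in the Col8a2 libraries. All 6 values lay just above the length of the short transcript. Whatever the mix of the other transcripts, these lengths place between 84.2% and 99.1% of the gene's TPM on the short one. The transcripts that hold the long part of the variable exon were then left with at most 4.25 to 9.27 TPM in a library, against 40.75 to 167.03 TPM for the gene as a whole. In the short transcript only 153 bases belong to Pcdhgc4 alone, and the rest is the same in every gamma member. Where the reads lay along the gene and how many came from other gamma members was not tested.

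**Figure D2:**
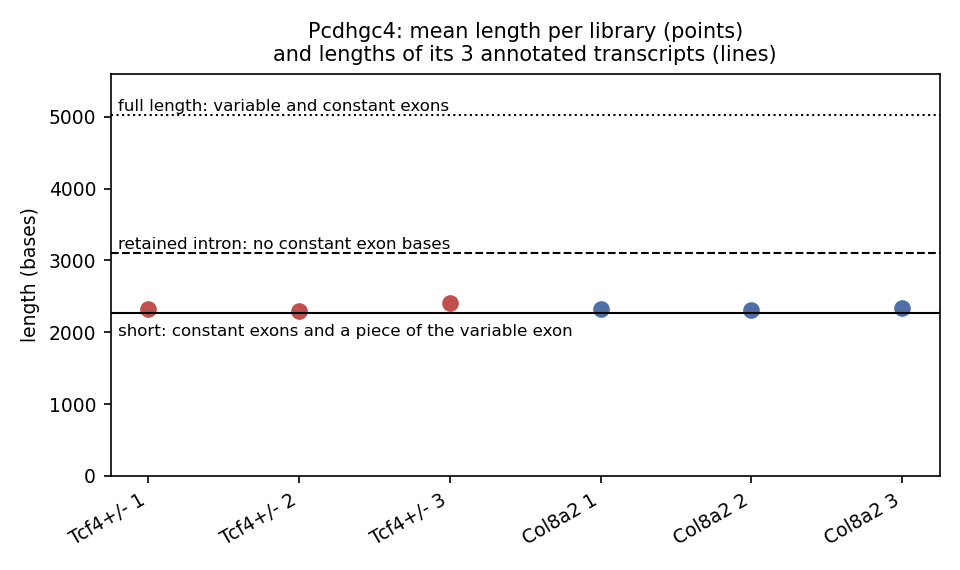
Mean length of Pcdhgc4 in bases in each library (points, Tcf4+/- left of Col8a2) and the lengths of its 3 annotated transcripts (lines). All 6 points lie between 2296.1 and 2403.2 bases, just above the short transcript of 2272 bases.

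Without Pcdhgc4 the gamma sum was 138, 192 and 48.4 CPM in the Tcf4+/- libraries, against 101, 111 and 143 CPM in the Col8a2 libraries. Means were 126 ± 72.5 and 118 ± 22.1 CPM (SD, n = 3 each), and the groups overlapped. This sum was chosen after the values had been seen, and it leaves out any reads of other gamma members that were given to Pcdhgc4. Gamma A members summed to 56.7, 70.8 and 10.8 CPM in the Tcf4+/- libraries and to 17.3, 71.3 and 53.7 CPM in the Col8a2 libraries, and gamma B members to 33.4, 41.1 and 8.37 CPM in the Tcf4+/- libraries and to 38.1, 20.3 and 22.5 CPM in the Col8a2 libraries. Both sums were lowest in Tcf4+/- replicate 3.

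Pcdhgc3 was the second gamma member by mean TPM, at 11.2 TPM against 114 TPM for Pcdhgc4. Pcdhgc3 (ENSMUSG00000102918) is a C-type member that, in the mouse cortex, binds Axin1 and promotes dendrite branching. Its level was 46.7, 79.4 and 28.8 CPM in the Tcf4+/- libraries, against 44.7, 17.3 and 59.8 CPM in the Col8a2 libraries. The groups overlapped, and the log2 fold change of 0.35 had a 95% interval of -0.76 to 1.45. Its sign was negative without Tcf4+/- replicate 2 and without Col8a2 replicate 2.

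Pcdhgc5, the last member of the cluster, did not overlap between the groups and was low. It had 44, 32 and 13 counts, or 0.932, 0.581 and 0.439 CPM, in the Tcf4+/- libraries, against 49, 93 and 367 counts, or 1.04, 1.88 and 7.25 CPM, in the Col8a2 libraries. Replicate 1 was close in both groups, and Col8a2 replicate 3 stood above the rest. The log2 fold change was -2.37 with a 95% interval from -5.12 to 0.37 and an unadjusted p of 0.0825 in edgeR's quasi-likelihood test across all genes. Without Col8a2 replicate 3 it was -1.16. In all 3 Tcf4+/- libraries and in Col8a2 replicate 2 the mean length was 5777 bases, that of a transcript with a retained intron, in which 7.10% of the bases are constant exon. In Col8a2 replicates 1 and 3 it was 4949 and 4796.82 bases. The other transcripts of the gene are a full-length coding one of 4741 bases and short ones of 593 and 444 bases. Different mixes can give the same mean length, so these values do not tell which transcripts were present. Another case with a retained intron was Pcdhga12, the last gamma A member, whose mean length was 4352 bases in 5 of the 6 libraries, that of a single-exon transcript with a retained intron and no constant exon. Pcdhgb2 had 2756 bases, also of a transcript with a retained intron, in all 3 Tcf4+/- libraries. In Col8a2 replicates 2 and 3 it had 3683.12 and 4661 bases. Mean lengths of other members with several transcripts differed between libraries as well.

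Among the ordinary gamma members, Pcdhga7 and Pcdhgb7 had the highest mean TPM, at 2.5 and 2.25. Pcdhga7 stood at 3.75, 17.7 and 2.16 CPM in the Tcf4+/- libraries, against 3.76, 14.7 and 16.2 CPM in the Col8a2 libraries. Pcdhgb7 stood at 15.8, 16.7 and 4.66 CPM in the Tcf4+/- libraries, against 10.6, 6.68 and 3.56 CPM in the Col8a2 libraries. Both overlapped, and their log2 fold changes of -0.55 and 0.84 had intervals from -2.46 to 1.36 and from -0.63 to 2.31. Without Tcf4+/- replicate 2 that of Pcdhga7 was -1.95. These genes encode recognition proteins that differ from each other in the extracellular domains.

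Of the 18 ordinary gamma members, 7 had at least 10 counts in all 6 libraries and 11 fell below this in at least 1 library. At least 10 counts were present for 19, 21 and 15 of 21 gamma members in the Tcf4+/- libraries. In the Col8a2 libraries this held for 14, 16 and 18, and 10 members, the 3 C-type genes among them, reached it in all 6. A fixed count depends on depth. At least 0.5 CPM was reached by 17, 20 and 10 gamma members in the Tcf4+/- libraries, against 11, 15 and 17. Pcdhga6 and Pcdhga10, named after their values were seen, did not overlap between the groups. Pcdhga6 had 5.08, 1.76 and 0.473 CPM in the Tcf4+/- libraries, against 0.446, 0 and 0 CPM in the Col8a2 libraries. The log2 fold change of Pcdhga6 was 4.02, in a 95% interval of -0.71 to 8.75. Its lowest Tcf4+/- value and its highest Col8a2 value were 14 and 21 counts in libraries of different depth. Pcdhga10 had 2.10, 0.8 and 0.911 CPM in the Tcf4+/- libraries, against 7.33, 3.39 and 3.58 CPM in the Col8a2 libraries. For Pcdhga10 the log2 fold change was -1.91, in a 95% interval of -4.04 to 0.23.

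The beta cluster was used broadly, with no member dominating it. The effective number of members in use, the inverse Simpson index of the members' TPM shares, was 8.92, 7.89 and 8.23 in the Tcf4+/- libraries, against 7.96, 9.64 and 7.39 in the Col8a2 libraries. The largest share of 1 member was between 18.3% and 29.8% of the beta TPM. The groups overlapped in both measures. On shares of counts in place of TPM the difference of the group means was -1.17, against 0.02 on TPM. The same index was between 1.41 and 1.73 in gamma, where Pcdhgc4 leads, and between 2.66 and 8.31 in gamma without it. Pcdhgc4 held 59.3% to 71.4% of the gamma counts, a smaller share than on TPM. Both gamma ranges depend on how reads of the shared constant exons were given to Pcdhgc4.

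Pcdhb22, at the end of the cluster nearest to gamma, had the highest mean level of the beta members, at 4.89 TPM. It stood at 15.8, 36.1 and 11.0 CPM in the Tcf4+/- libraries, against 16.8, 19.6 and 27.5 CPM in the Col8a2 libraries, and ranked first by TPM in 3 of 6 libraries and between 2 and 5 in the others. Means were 21 ± 13.3 and 21.3 ± 5.52 CPM (SD, n = 3 each), and the log2 fold change of -0.02 had a 95% interval from -1.10 to 1.06. Its reads were divided between transcripts of 6609 and 2266 bases. Mean lengths were 6411.92, 4199.77 and 6609 bases in the Tcf4+/- libraries, against 6086.15, 4565.44 and 4340.91 bases in the Col8a2 libraries. The TPM, rank and beta share of Pcdhb22 depend on this division. With limma on log2(TPM + 0.1) its log2 fold change was -0.56, where the median of all genes was -0.16. Beta proteins, like the others, take part in homophilic recognition, and they signal without a shared constant domain.

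Pcdhb20, Pcdhb9 and Pcdhb17 followed by mean level, at 2.79, 2.07 and 1.80 TPM. Pcdhb20 stood at 2.73, 9.72 and 6.38 CPM in the Tcf4+/- libraries, against 11.7, 18.2 and 2.65 CPM in the Col8a2 libraries. Pcdhb9 stood at 1.02, 11.1 and 2.70 CPM in the Tcf4+/- libraries, against 2.93, 11.1 and 3.24 CPM in the Col8a2 libraries. Pcdhb20 was highest in Col8a2 replicate 2 and Pcdhb9 in replicate 2 of both groups, and both overlapped. Pcdhb17 was steadier, at 10.5, 9.05 and 7.33 CPM in the Tcf4+/- libraries, against 7.12, 4.44 and 7.96 CPM in the Col8a2 libraries. Its log2 fold change was 0.46 with a 95% interval from -0.79 to 1.71, and those of Pcdhb20 and Pcdhb9 were -0.79 and -0.22, with intervals from -2.53 to 0.94 and from -2.43 to 1.99. Pcdhb14 and Pcdhb17 varied least among the beta members, with the highest library at 2.31 and 2.36 times the lowest.

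Pcdhb11 was the only member with an unadjusted edgeR p under 0.05. Pcdhb11 (ENSMUSG00000051486) encodes a beta protocadherin and has 1 exon that it shares with no other member. It had 18, 38 and 23 counts, or 0.381, 0.691 and 0.776 CPM, in the Tcf4+/- libraries, against 806, 92 and 368 counts, or 17.1, 1.86 and 7.27 CPM, in the Col8a2 libraries. Every Tcf4+/- library lay below every Col8a2 library, and the Col8a2 libraries themselves lay far apart. The log2 fold change was -3.82 (standard error 1.01) with a 95% interval of -6.09 to -1.56. In edgeR's quasi-likelihood test the unadjusted p was 0.00383 and the Benjamini-Hochberg adjusted p over all genes tested was 0.99988. DESeq2 gave an adjusted p of 0.00391 for the same counts. Over 15 alternatives the log2 fold change stayed between -4.52 and -2.89 and the adjusted p ran from 0.00391 to 1.0, with 0.774 the lowest outside DESeq2. Without Col8a2 replicate 1 the log2 fold change was -2.89.

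Pcdhb10, next to Pcdhb11 and named after its values were seen, was high in the same Col8a2 library. It stood at 0.106, 2.25 and 0.270 CPM in the Tcf4+/- libraries, against 16.8, 2.22 and 0.316 CPM in the Col8a2 libraries. Col8a2 replicate 1 was far above the rest, and the other 5 libraries were mixed between the groups. In Col8a2 replicate 1, Pcdhb10 and Pcdhb11 were the leading beta members, with 22.8% and 14.5% of the beta TPM. In Tcf4+/- replicate 1, where Pcdhb22 and Pcdhb17 led with 19.8% and 18.4%, they had 0.295% and 0.737%.

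By position in the beta cluster, 7 of the last 9 members, Pcdhb14 to Pcdhb22, had at least 10 counts in all 6 libraries, with Pcdhb15 and Pcdhb16 reaching this in 3 and 5, against 4 of the first 13. The first 13 summed to 9.04, 33.4 and 6.68 CPM in the Tcf4+/- libraries, against 56.3, 31.0 and 23.0 CPM in the Col8a2 libraries. The last 9 summed to 55.5, 94.5 and 41.4 CPM in the Tcf4+/- libraries, against 50.8, 80.2 and 65.8 CPM in the Col8a2 libraries. Both sums overlapped between the groups. The position of this split was chosen from these values, so the contrast is a description only, with no test. Pcdhb1, the first member, was at 0 in all libraries, where 3 counts, the limit that a count of 0 allows, would be 0.0545 to 0.101 CPM. Such limits and all counts here cover counting error only.

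In the alpha cluster nearly all signal came from 1 to 4 members of a library, and these were different members in different libraries. At least 10 counts were present for 3, 4 and 2 of 14 alpha members in the Tcf4+/- libraries, against 2, 2 and 1 in the Col8a2 libraries. At least 0.5 CPM was reached by 3, 3 and 2 alpha members in the Tcf4+/- libraries, against 1, 2 and 1. Pcdha4 led in Tcf4+/- replicate 1 with 59.0% of the alpha TPM, Pcdhac2 in Tcf4+/- replicate 2 with 62.3% and Pcdha5 in Tcf4+/- replicate 3 with 66.7%. Pcdha4 also led in Col8a2 replicates 1 and 2 with 76.8% and 79.9%, and Pcdha2 led in Col8a2 replicate 3 with 98.6%. No alpha member had a count in all 6 libraries, and 7 of 14 were at 0 in all of them.

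Pcdha5 and Pcdha2 each appeared in 1 library only. Pcdha5 had 385 counts, or 13 CPM, in Tcf4+/- replicate 3 and 0 in the other 5 libraries. Pcdha2 had 686 counts, or 13.6 CPM, in Col8a2 replicate 3 and 0 in the other 5. Neither value repeated within its group, and the count filter removed both genes from the test. Pcdha8, also below the filter, had 82 and 80 counts in Tcf4+/- replicates 1 and 2 and 0 in the other 4 libraries. These are ordinary alpha members with variable exons of their own.

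Pcdha4 and Pcdhac2 were the only alpha members that passed the filter. Pcdha4 stood at 4.64, 1.54 and 5.10 CPM in the Tcf4+/- libraries, against 9.79, 13.7 and 0 CPM in the Col8a2 libraries. The Col8a2 group held both its highest value and the only 0, and the log2 fold change of -1.06 had a 95% interval from -4.37 to 2.25. With limma voom the sign was positive, at 1.55. Pcdhac2, a C-type member known from mice to space the axons of serotonergic neurons, stood at 2.61, 11.3 and 0 CPM in the Tcf4+/- libraries, against 0.149, 3.13 and 0 CPM in the Col8a2 libraries. Replicate 3 of both groups was at 0, and the log2 fold change of 2.08 had a 95% interval of -2.64 to 6.81. It was 0.25 without Tcf4+/- replicate 2 and 5.92 without Col8a2 replicate 2. Pcdhac1, the other C-type alpha member, was at 0 in all 6 libraries.

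The effective number of alpha members was 2.33, 2.28 and 1.80 in the Tcf4+/- libraries, against 1.56, 1.52 and 1.03 in the Col8a2 libraries. The groups did not overlap, with means of 2.14 ± 0.292 and 1.37 ± 0.297 (SD, n = 3 each). An exact permutation test of 3 against 3 cannot go below p = 0.1, and no test is given for this index. The difference of 0.77 was between 0.60 and 0.93 when any 1 library was left out, which cannot turn its sign where groups do not overlap. Among all the cluster measures taken, only this index and the largest alpha share, from the same TPM shares, did not overlap. The alpha sums under these shares were 8.98 to 18.1 CPM, and Pcdha11 entered with up to 22.3% of the alpha TPM of a library on 14 counts, where its mean length was that of a 625-base transcript.

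**Figure D3:**
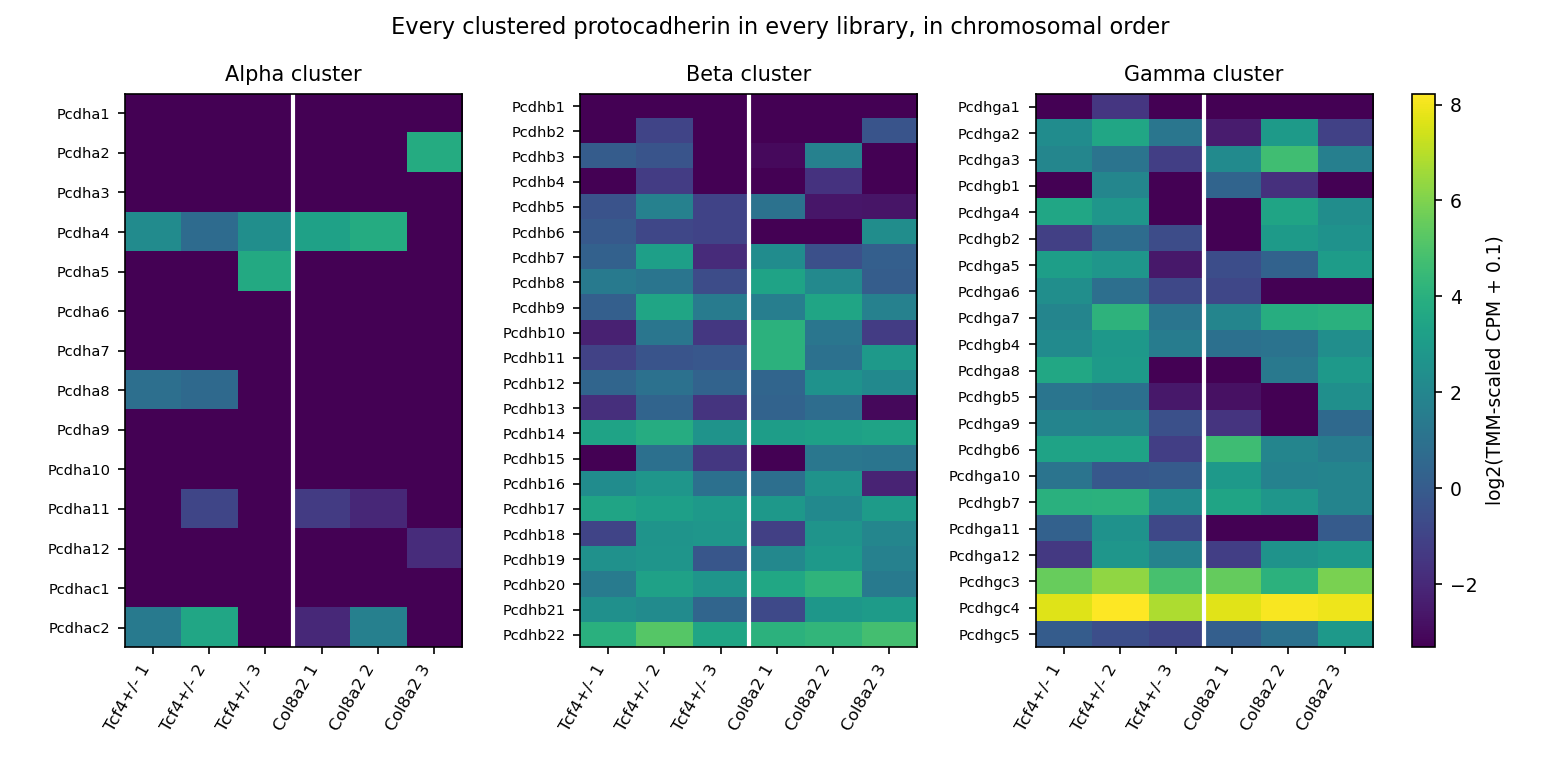
Level of every member in every library as log2(TMM-scaled CPM + 0.1), with members in chromosomal order down the page and the 3 Tcf4+/- libraries left of the 3 Col8a2 libraries in each panel. Pcdhgc4 and Pcdhgc3 are bright in all 6 libraries, most alpha members are dark in all of them, and bright alpha cells such as Pcdha2 and Pcdha5 stand in 1 library each.

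Across all clusters the comparison of the groups called no member. Of 57 members 41 passed the filter on low counts, 2 alpha, 19 beta and 20 gamma, and 16 did not. Of those tested by edgeR's quasi-likelihood test, 0 passed a Benjamini-Hochberg adjusted p of 0.05, and over all 17639 genes tested percent called was 0%. At an unadjusted p under 0.05, 1 member was lower and 0 were higher in the Tcf4+/- libraries, where 1% and 1.42% of all genes tested were, or 2.42% in either direction. DESeq2 called 1 of 46 members, Pcdhb11, against 0.463% of all genes with an adjusted p in DESeq2, 0.137% lower and 0.327% higher. Of the 41 members 18 were fitted higher and 23 lower, and their median log2 fold change was -0.22, beside 0 over all genes, of which 49.9% were fitted lower. Without Tcf4+/- replicate 2, 13 members were fitted higher and 28 lower, and without Tcf4+/- replicate 3, 25 higher and 20 lower. The filter was run again each time, so the set of members tested could differ from these 41.

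By cluster, 6 beta members were fitted higher and 13 lower, with a median log2 fold change of -0.44, and 11 gamma members higher and 9 lower, with a median of 0.28. The groups did not overlap for 3 members that were lower, Pcdhb11, Pcdhga10 and Pcdhgc5, and for 1 that was higher, Pcdhga6. Over all genes tested the groups did not overlap for 3.57% lower and 4.53% higher, or 8.1% in either direction. The fitted log2 fold changes of the members ran from -3.82 for Pcdhb11 to 4.02 for Pcdhga6. The 95% interval held 0 for 40 of 41 members and was wider than 4 log2 units for 32 of them.

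**Figure D4:**
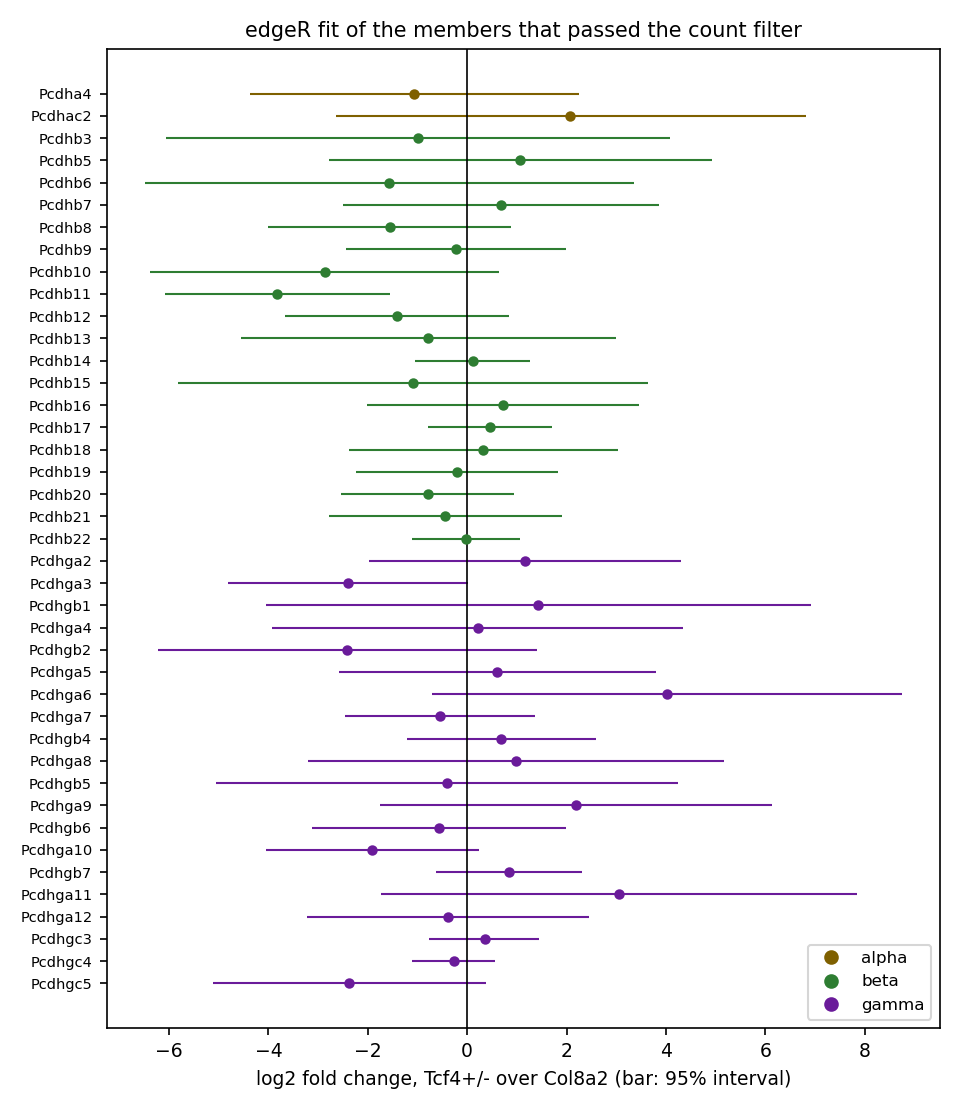
Log2 fold change, Tcf4+/- over Col8a2, of the 41 members that passed the count filter, with 95% intervals from the edgeR fit, coloured by cluster. The interval of Pcdhb11, from -6.09 to -1.56, is the only 1 that leaves out 0, and 32 intervals are wider than 4 log2 units.

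Libraries of the same genotype differed widely in the members. The SD of log2(CPM + 0.1) within groups had a median of 1.73 over the 41 members, 1.70 in beta and 1.76 in gamma, and was 2.88 and 3.08 for the 2 alpha members. Over all genes tested the median was 0.658, and in the 8558 other genes with mean levels in the range of the beta members, 0.755 to 21.1 CPM, it was 0.945. The SD was above 0.658 for 37 of the 41 members. The members below it included Pcdhgc4 at 0.520, Pcdhb17 at 0.359 and Pcdhb14 at 0.438. The part of read division, of the number of cells behind a library and of the animals in this spread was not tested.

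**Figure D5:**
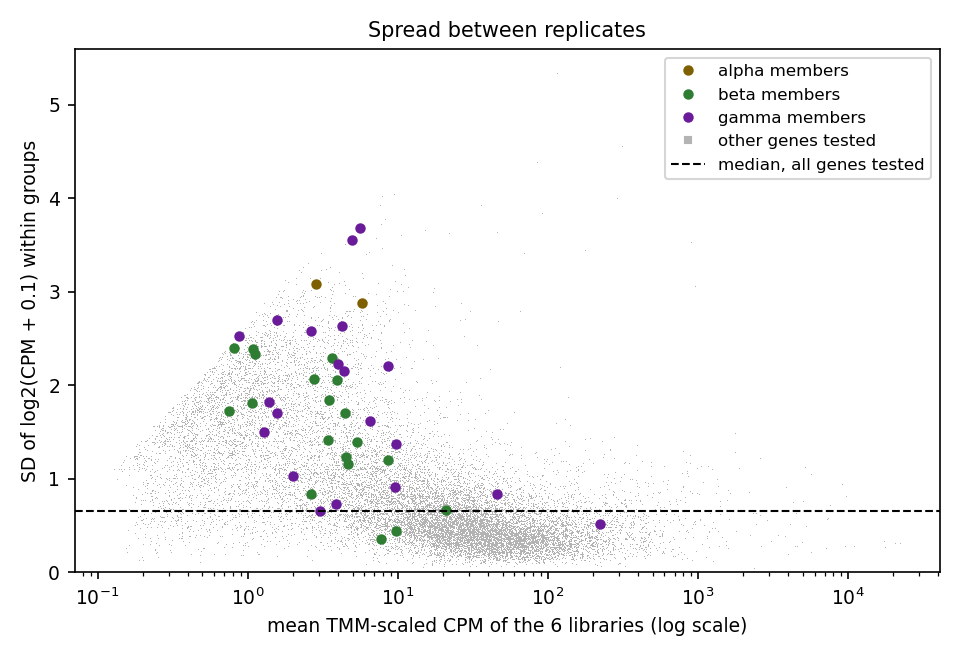
Within-group SD of log2(CPM + 0.1) against mean TMM-scaled CPM on a log scale, for the 41 members (coloured by cluster) and all other genes tested (grey), with the median of all genes tested as a dashed line at 0.658. Most members lie above the line, and the highly expressed Pcdhgc4 lies below it at 0.520.

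No gene of those known to set which protocadherin promoter is used passed edgeR's test between the groups. The list held 24 genes, among them CTCF, cohesin and its loaders, and the enzymes of DNA and histone methylation. All 24 were tested, 0 passed, and 14 were fitted higher and 10 lower, with a median log2 fold change of 0.02 beside 0 over all genes. Smchd1, a chromatin protein that in mice restrains protocadherin promoters, had 18.3, 23.7 and 22.2 CPM in the Tcf4+/- libraries, against 11.7, 17.7 and 14.7 CPM in the Col8a2 libraries. These ranges did not overlap, which held for 1 of the 24 genes, beside 8.1% of all genes tested. The log2 fold change was 0.54, and edgeR's quasi-likelihood test gave an unadjusted p of 0.174 and a Benjamini-Hochberg adjusted p of 0.99988. Ehmt1, a histone methyltransferase, was at -0.47 with an unadjusted p of 0.227 in the same edgeR fit across all genes. Trim28 and Ehmt2, the most abundant of the list by TPM, had log2 fold changes of -0.27 and -0.10.

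The partners that carry protocadherin signals or cut the proteins at the membrane, 24 genes that include focal adhesion kinases, the WAVE complex and gamma-secretase, gave 10 fitted higher and 14 lower and 0 calls, with a median of -0.05. Axin1, a partner of Pcdhgc3, had 29.0, 42.9 and 18.9 CPM in the Tcf4+/- libraries, against 56.0, 47.8 and 34.0 CPM in the Col8a2 libraries, a log2 fold change of -0.60. Ptk2, the focal adhesion kinase that the constant domains of alpha and gamma hold back in neurons, had 52.9, 51.1 and 22.5 CPM in the Tcf4+/- libraries, against 54.4, 67.7 and 60.7 CPM in the Col8a2 libraries, a log2 fold change of -0.53. Axin1 overlapped between the groups, and Ptk2 was the only 1 of the 24 genes that did not, beside 8.1% of all genes tested. The unadjusted p of Axin1 and Ptk2 in the edgeR fit across all genes were 0.137 and 0.167. Psenen, a gamma-secretase subunit, and Brk1, a WAVE complex subunit, were the most abundant, with log2 fold changes of 0.20 and 0.09.

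The 12 nonclustered protocadherins, related cell-surface proteins encoded elsewhere in the genome, were all tested, with 8 fitted higher, 4 lower and 0 called, and a median log2 fold change of 0.26. Pcdh7 was the highest of them, at 66.7, 142 and 36.7 CPM in the Tcf4+/- libraries, against 126, 162 and 73.4 CPM in the Col8a2 libraries, and at 18.7 TPM it was above every clustered member but Pcdhgc4. Pcdh19, the next, was at 10.6 ± 1.5 CPM in the Tcf4+/- libraries and 12.9 ± 8.8 CPM in the Col8a2 libraries (SD, n = 3 each). The smallest p were those of Pcdh15 and Pcdh10, with log2 fold changes of -1.84 and -2.06 and unadjusted p of 0.101 and 0.239 in the edgeR fit across all genes. Pcdh15, a protein of hair cell tip links, had 0.974, 0.618 and 2.70 CPM in the Tcf4+/- libraries, against 9.47, 2.79 and 3.10 CPM in the Col8a2 libraries. It was the only 1 of the 12 without overlap, beside 8.1% of all genes tested.

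Of 12 classical cadherins and catenins, the adhesion proteins of adherens junctions, 7 were fitted higher and 5 lower, 0 were called and the median log2 fold change was 0.03. Ctnnb1, which encodes beta-catenin, stood at 373 ± 41.8 CPM in the Tcf4+/- libraries and 366 ± 53.4 CPM in the Col8a2 libraries (SD, n = 3 each). Jup, which encodes plakoglobin, stood at 228 ± 52.5 CPM in the Tcf4+/- libraries and 219 ± 57.2 CPM in the Col8a2 libraries. The smallest p were those of Cdh5, the cadherin of vascular endothelium, at a log2 fold change of 1.43, and Ctnnd1, which encodes p120-catenin, at -0.38. Their unadjusted p in the edgeR fit across all genes were 0.189 and 0.265. Cdh5 was the only 1 of the 12 that did not overlap between the groups, beside 8.1% of all genes tested.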

How the data were processed

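Each library has a deposited RSEM table of genes with lengths, expected counts, TPM and FPKM, per the file headers. The authors left the expected counts, which are estimates, unscaled for depth. Deposited TPM are relative to transcript length and sum alike in each library, and the FPKM the authors deposited were not used. FastQC 0.12.1, fastp 0.23.2, STAR, RSEM, DESeq2 and build GRCm39 are listed, per the submitters' processing notes. Other versions and the annotation were not given in the sources used here. Per the labels' protocols, full-length cDNA came from the SMART-Seq HT Kit and libraries from Nextera XT.

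GENCODE M21, of build GRCm38, gave symbols for 51884 of 57180 identifiers, gene types, gene order and transcript structures, and no coordinates are given. The transcript identifiers of all 57 members were the same in the files and in M21. M21 gives 2 genes the symbol Pcdha11, and 1 of them was named Pcdha10 by its RefSeq accession. Pcdhgb8, a polymorphic pseudogene there, is not a member. No sequence is printed.

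Expected counts were rounded, filtered with filterByExpr, scaled by TMM (factors 0.9735 to 1.063) and tested over all genes with edgeR 4.0.16 in R 4.3.3, by robust quasi-likelihood F-test with 1 term, genotype, and Benjamini-Hochberg adjustment at 0.05. CPM are TMM-scaled. DESeq2 1.42.0, limma 3.58.1 and other filters, scalings and left-out libraries were alternatives. The edgeR fit, and no other step, was tried on simulated counts. In each cluster the 4 members of highest mean TPM, the C-type members and members with an unadjusted p under 0.05 are named, and in each other list the 2 of smallest p and of highest TPM. The members, lists and rules were chosen with earlier results of these data known. The protocol is not described as keeping the strand, so reads where a member and an antisense gene overlap cannot be told apart.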

Additional observations from a re-analysis of the deposited data

How the results depend on the processing

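Over 15 alternatives, the count of genes called by edgeR, 0, became 105 with DESeq2 and was 0 to 4 with 1 library left out, 4 of them without Col8a2 replicate 3. Members called were 0 except with DESeq2, where 1 was. Members with an unadjusted p under 0.05, 1 in the report, were 2 with DESeq2 size factors, upper quartile scaling, limma voom or Tcf4+/- replicates 2 and 3 left out together, 4 with a mean of at least 1 CPM, 5 with no filter, 7 with DESeq2 and 2 to 6 with 1 library left out. With the replicate number as a block, 3 had an unadjusted p under 0.05 and 0 genes were called. The correlations of same-numbered libraries, -0.026, 0.157 and -0.022, do not show that numbers pair them. The alpha log2 ratio, 0.03, was -0.44 on summed TPM and -0.60 without Tcf4+/- replicates 2 and 3. The difference in effective number was -1.17 in beta on shares of counts and -1.06 in gamma without Pcdhgc4, an alternative chosen after seeing the data. Signs turned for Pcdha4 with limma voom, 1.55, and for Pcdhb22 with upper quartile scaling, 0.04. With 1 library left out, log2 fold changes ran from -0.66 to 0.28 for Pcdhb22, -1.61 to 0.68 for Pcdhb9, -0.64 to 0.01 for Pcdhgc4 and -0.10 to 0.74 for Pcdhgc3. They kept their sign, from -2.81 to -1.16 for Pcdhgc5, -1.95 to -0.11 for Pcdhga7, -1.26 to -0.19 for Pcdhb20, -1.64 to -0.38 for Pcdha4, 0.53 to 1.28 for Pcdhgb7 and 0.25 to 5.92 for Pcdhac2. The cause of these changes was not tested. The direction of the beta total was the same in all alternatives run. On the TPM scale the median of all genes was -0.16. Over 41 members 32 intervals were wider than 4 log2 units, which limits what a comparison of low counts can show.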

Other observations

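Genes that lie among or beside the protocadherins were read from the same fit, after their values had been seen. Taf7, a subunit of the general transcription factor TFIID, had 25.5, 15.4 and 16.1 CPM in the Tcf4+/- libraries, against 8.52, 9.11 and 12.1 CPM in the Col8a2 libraries. The groups did not overlap, as for 8.1% of all genes tested. The log2 fold change of Taf7 was 0.94 with a 95% interval from -0.01 to 1.89, and edgeR's quasi-likelihood test gave a Benjamini-Hochberg adjusted p of 0.99988. Diaph1, an actin nucleator, and Hdac3, a histone deacetylase, were at 35.4 ± 10.8 and 55.8 ± 21.4 CPM in the Tcf4+/- libraries, against 35.9 ± 11.0 and 77.6 ± 15.7 CPM in the Col8a2 libraries (SD, n = 3 each). Their ranges overlapped. Pcdhgb8, the gamma pseudogene, had 1.10, 1.04 and 0 CPM in the Tcf4+/- libraries, against 0, 6.26 and 0 CPM in the Col8a2 libraries.

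Counts of genes annotated on the opposite strand of the clusters cannot be told apart from those of a member where both overlap, as no strand is stated for these libraries. The antisense gene BC037039 in the gamma cluster had 11, 29 and 0 counts in the Tcf4+/- libraries, against 4, 62 and 194 counts in the Col8a2 libraries. Gm10544 in the alpha cluster had 131, 51 and 91 counts in the Tcf4+/- libraries, against 204, 46 and 32 counts in the Col8a2 libraries. Both overlapped between the groups. Gm42416, Gm37013 and Gm37388, predicted protein-coding genes on the strand of the alpha cluster, were at 0 in all 6 libraries.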
